A study of Mus musculus with 21 samples.

Results

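Messenger RNA levels of 8 C-type lectin receptors of myeloid cells were described across 21 mouse RNA sequencing libraries. The members, Clec7a, Clec4d, Clec4e, Clec4n, Clec5a, Clec12a, Clec2d and Mrc1, were chosen by gene symbol, 8 of the 35550 genes listed for the cell line and 5 of the 5298 listed for liver. RAW264.7 is a line of mouse cells with macrophage features. Vim-KO and WT RAW264.7 cells were treated with LPS at 1 µg/mL or with PBS for 12 h. In a separate experiment WT RAW264.7 cells received LPS at 1 µg/mL plus CTM at 0.5 mM, LPS at 1 µg/mL alone, or PBS for 24 h. Each cell line group had 2 libraries. Liver came from C57BL/6J mice, 1 library per group, after intraperitoneal injection. TG2-KO mice received LPS at 30 mg/kg or PBS, and WT mice received LPS at 30 mg/kg plus CTM at 100 mg/kg, LPS at 30 mg/kg alone, or PBS. A further pair of WT livers, with and without liver macrophage depletion, received LPS at a dose that the labels do not give. LPS is a bacterial cell wall lipid that macrophages sense through Tlr4, Vim encodes the filament protein vimentin, Tgm2 encodes transglutaminase 2 (TG2), and CTM is named as the labels name it. The labels give no age of the mice, no method of depletion, no time after injection, and no number of clones behind the Vim-KO line. Values are TPM (transcript abundance scaled to a fixed total per library), a level per transcript length that can be compared between genes but keeps no read depth, so the counting error of each value is unknown.

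C-type lectin receptors are surface proteins through which macrophages, dendritic cells and neutrophils recognise sugars and lipids of fungi and mycobacteria and products of dying cells. The activating receptors signal through the kinase Syk, either with an ITAM-bearing adaptor (Fcer1g or Tyrobp) or through a tyrosine motif of their own, and then through the scaffold CARD9 with BCL10 and MALT1 to NF-kB. Inhibitory receptors carry an ITIM that recruits phosphatases. Among the members, Clec4n encodes Dectin-2, a receptor for mannans, Clec4e encodes Mincle, a receptor for mycobacterial glycolipid, and Clec4d encodes its partner MCL, all of which use the Fcer1g adaptor. Clec7a encodes the beta-glucan receptor Dectin-1, Clec5a a receptor coupled to the Tyrobp adaptor, and Clec12a an inhibitory receptor for uric acid crystals. Clec2d encodes a ligand of an inhibitory natural killer cell receptor, and Mrc1 the mannose receptor, an endocytic receptor of resident macrophages that liver sinusoidal endothelial cells also carry.

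In the RefSeq annotation of GRCm38.p6, 7 of the 8 genes lie on chromosome 6. Clec4n (123229843 to 123247024), Clec4d (123262107 to 123275268) and Clec4e (123281789 to 123289871) are direct neighbours, with 15.1 kb between Clec4n and Clec4d and 6.52 kb between Clec4d and Clec4e. Clec2d (129180615 to 129186535), Clec12a (129349783 to 129365303) and Clec7a (129461591 to 129472785) form a further group on the same chromosome, and Clec5a (40574898 to 40585805) lies apart. Mrc1 is on chromosome 2 (14229414 to 14332023). RefSeq promoter entries were found for 7 of the 8 members, and the 250 bases before the start of each entry were searched on both strands for letters of 5 motifs. The upstream windows of Clec4d and Clec4e are shown because these neighbours differed in Vim-KO cells, and that of Clec7a because Clec7a was lowest there with LPS among the 7 receptors tested. Capitals mark a match, all positions are GRCm38.p6 and all sequences are from RefSeq.
Clec4d (chr6:123261857-123262106, + strand): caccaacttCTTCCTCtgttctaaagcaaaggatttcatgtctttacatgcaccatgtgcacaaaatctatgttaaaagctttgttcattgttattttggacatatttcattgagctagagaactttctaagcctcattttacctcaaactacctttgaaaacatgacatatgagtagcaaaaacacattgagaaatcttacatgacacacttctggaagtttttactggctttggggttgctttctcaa
Clec4e (chr6:123289872-123290121, - strand): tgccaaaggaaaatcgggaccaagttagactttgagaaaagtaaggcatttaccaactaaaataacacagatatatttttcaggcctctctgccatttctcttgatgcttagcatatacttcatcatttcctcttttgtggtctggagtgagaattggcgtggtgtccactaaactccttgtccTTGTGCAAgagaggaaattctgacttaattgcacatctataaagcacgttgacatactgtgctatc
Clec7a (chr6:129472786-129473035, - strand): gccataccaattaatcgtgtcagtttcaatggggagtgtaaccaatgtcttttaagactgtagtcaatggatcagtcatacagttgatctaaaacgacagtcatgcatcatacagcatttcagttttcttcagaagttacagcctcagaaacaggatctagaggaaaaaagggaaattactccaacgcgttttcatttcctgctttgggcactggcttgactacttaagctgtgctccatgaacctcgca
The match in Clec4d is to the PU.1 letters GAGGAAG (here on the opposite strand), which 10.6% of 32851 promoter windows of that length hold. The match in Clec4e is to the C/EBP letters TTGCNNAA (also on the opposite strand), held by 9.56%, and the Clec7a window held none of the 5 motifs. Clec12a had 1 match each to the C/EBP letters, the PU.1 letters and the AP-1 letters TGANTCA (6.75% of windows). Clec2d had 1 match to the NF-kB letters GGGANTTTC (0.941%) and 1 to the interferon response element letters GAAANNGAA (7.13%), and Clec5a and Mrc1 each had 2 matches to the PU.1 letters. None of these motifs overlapped another in the windows printed, and a match is only a description of letters.

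The targeted gene was read first. Vim was 17.0 and 18.7 TPM in Vim-KO PBS libraries, against 1930.1 and 1877 TPM in WT PBS libraries, and 30.8 and 33.0 TPM in Vim-KO LPS libraries, against 1375 and 1461 TPM in WT LPS libraries. Of 8 macrophage markers 7 averaged at least 1 TPM in each of the 7 cell line groups, and the exception was Mertk. Their summed level was 8949 to 8974 TPM in Vim-KO PBS cells against 17400 to 17487 TPM in WT PBS cells, and 11278 to 11995 TPM in Vim-KO LPS cells against 13727 to 14521 TPM in WT LPS cells. At 24 h it was 15436 to 15447 TPM with LPS plus CTM, 14229 to 14518 TPM with LPS and 10280 to 10555 TPM with PBS. Lyz2 led this sum in each group. Without Lyz2 the sum was 4329 to 4362 TPM with LPS plus CTM at 24 h, below the 4528 to 4836 TPM with LPS. With PBS at 24 h that rest was 3167 to 3235 TPM. In WT cells at 12 h the rest was higher with LPS (6037 to 6528 TPM) than with PBS (3998 to 4164 TPM). In Vim-KO cells it was 4424 to 5153 TPM with LPS and 3270 to 3464 TPM with PBS. Summed markers of other cells stayed low, up to 19.8 TPM for Kupffer cells, 9.56 TPM for monocytes, 25.3 TPM for dendritic cells (led by Itgax), 0.266 TPM for lymphocytes and 0.63 TPM for hepatocytes. Markers of sinusoidal endothelium reached 307 TPM in WT LPS cells at 12 h, of which Fcgr2b gave up to 287 TPM. Neutrophil markers summed to 5.08 to 19.9 TPM except in WT LPS cells at 12 h, where they reached 935 to 944 TPM with S100a8 at 892 to 908 TPM, against 12.9 and 13.1 TPM of S100a8 in Vim-KO LPS cells. The part of these marker differences in the results below was not tested.

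The receptors differed widely in level. With LPS at 24 h the order was Clec4d (732 ± 19.6 TPM, mean ± SD, n = 2 as in all cell line groups), Clec5a (283 ± 5.01 TPM), Clec4e (223 ± 0.807 TPM), Clec4n (90.0 ± 7.12 TPM), Clec12a (21.3 ± 0.905 TPM), Clec2d (9.71 ± 0.310 TPM), Clec7a (2.17 ± 0.0793 TPM) and Mrc1 (0.0783 ± 0.0180 TPM). With PBS at 24 h it was Clec5a (216 ± 2.12 TPM), Clec4d (139 ± 2.48 TPM), Clec12a (86.3 ± 0.301 TPM), Clec4e (69.8 ± 6.93 TPM), Clec7a (32.4 ± 6.08 TPM), Clec4n (3.95 ± 1.11 TPM), Clec2d (2.57 ± 0.184 TPM) and Mrc1 (0.0936 ± 0.00550 TPM). Neighbours in these orders did not overlap between libraries. In the 4 groups at 12 h the same held except for Clec7a and Clec4n in Vim-KO PBS cells, which overlapped. Mrc1 stayed between 0 and 0.359 TPM in the 14 cell line libraries, below the filter of a mean of 1 TPM, so 7 of the 8 members were tested in both experiments.

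**Figure D1:**
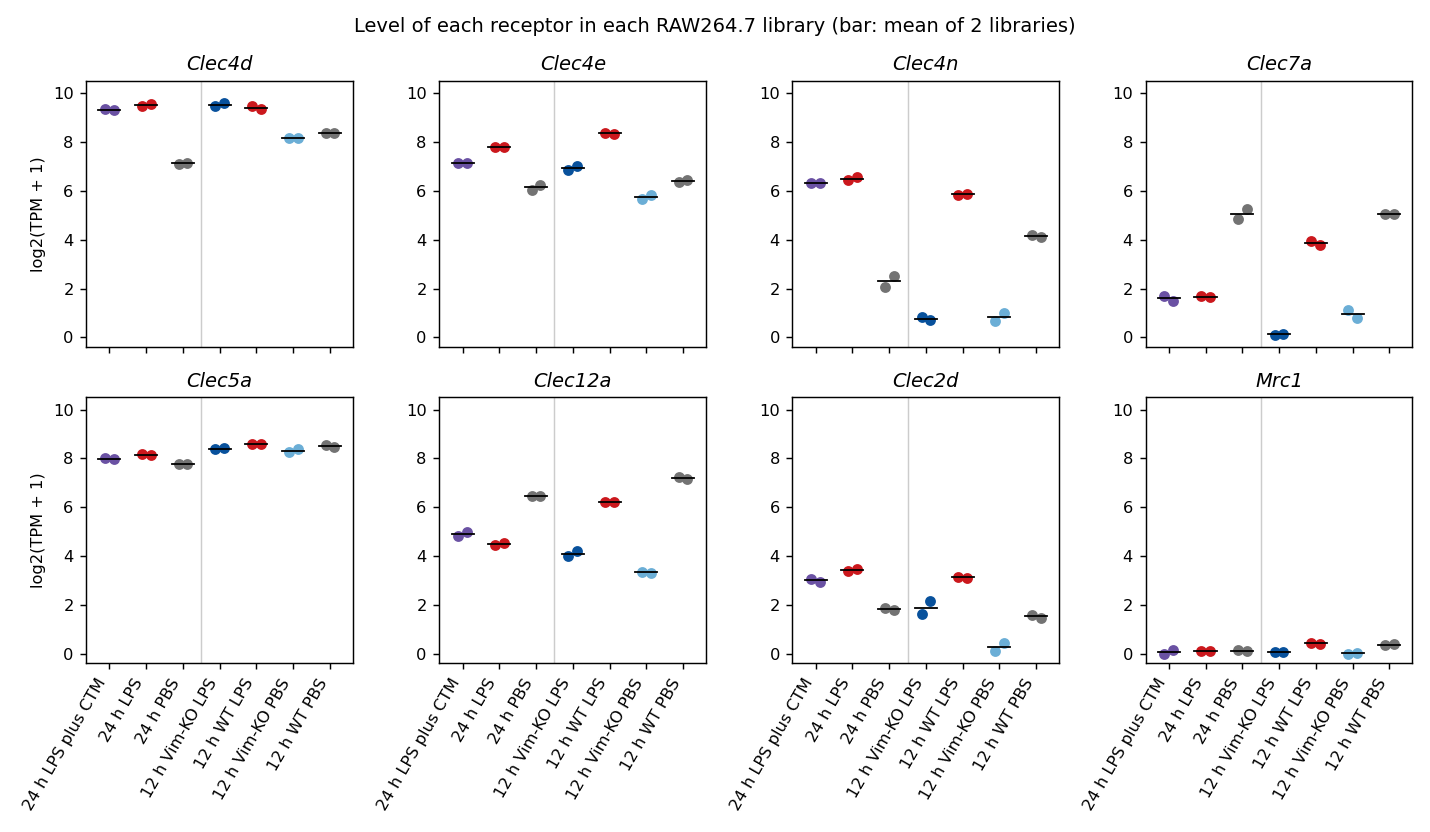
Level of each receptor as log2(TPM + 1) in each RAW264.7 library, 1 point per library and a bar at the mean of 2 libraries, with the 24 h experiment left of the grey line and the 12 h experiment right of it. Clec4n and Clec7a sit near 0 in both Vim-KO groups, Clec5a stays between 215 and 390.0 TPM in all 14 libraries, and Mrc1 stays at or below 0.359 TPM.

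LPS against PBS at 24 h divided the receptors. The receptors that use the Fcer1g adaptor rose together. Clec4d was 718 and 746 TPM in LPS libraries, against 137 and 141 TPM in PBS libraries. Clec4e was 224 and 223 TPM in LPS libraries, against 64.9 and 74.7 TPM in PBS libraries. Clec4n was 85.0 and 95.1 TPM in LPS libraries, against 3.16 and 4.73 TPM in PBS libraries. In each of these genes both LPS libraries lay above both PBS libraries. The LPS mean was 5.27-fold the PBS mean for Clec4d (log2 fold change of TPM + 1 2.39 ± 0.05, SE; adjusted p = 5.68e-08), 3.20-fold for Clec4e (1.67 ± 0.07; adjusted p = 2.58e-06) and 22.8-fold for Clec4n (4.22 ± 0.15; adjusted p = 9.32e-07), by limma with Benjamini-Hochberg adjustment over 11030 genes. Clec4d became the highest of the 8 receptors and Clec4n moved past Clec12a and Clec7a.

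Dectin-1 and the inhibitory receptor went the other way. Clec7a was 2.23 and 2.11 TPM in LPS libraries, against 28.1 and 36.7 TPM in PBS libraries. Clec12a was 20.7 and 22.0 TPM in LPS libraries, against 86.1 and 86.5 TPM in PBS libraries. The groups did not overlap, and the LPS mean was 6.69% of the PBS mean for Clec7a (log2 fold change -3.39 ± 0.17; adjusted p = 4.5e-06) and 24.7% for Clec12a (-1.97 ± 0.09; adjusted p = 2.75e-06). Clec2d rose, with 9.49 and 9.93 TPM in LPS libraries, against 2.70 and 2.44 TPM in PBS libraries (1.59 ± 0.14; adjusted p = 5.49e-05). Clec5a rose least, with 287 and 279.6 TPM in LPS libraries, against 218 and 215 TPM in PBS libraries (0.39 ± 0.05; adjusted p = 3.08e-04). Mrc1 was listed at 0.0656 and 0.0910 TPM in LPS libraries, against 0.0975 and 0.0897 TPM in PBS libraries, and was not tested.

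Of the 7 receptors tested, 5 were higher and 2 lower with LPS, where 20.9% of all genes tested were higher and 45.1% lower. Their median log2 fold change was 1.59, against -0.23 over all genes. Scaling the libraries to a common median of ratios moved the median of all genes by 0.25, so that 50.9% rather than 31.6% of the calls were higher, and left the receptors at 5 higher and 2 lower, with Clec5a at 0.65. Whether the 2 libraries per group stem from cultures grown apart is not in the labels, and these p-values measure the spread between libraries only, which may be technical.

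**Figure D2:**
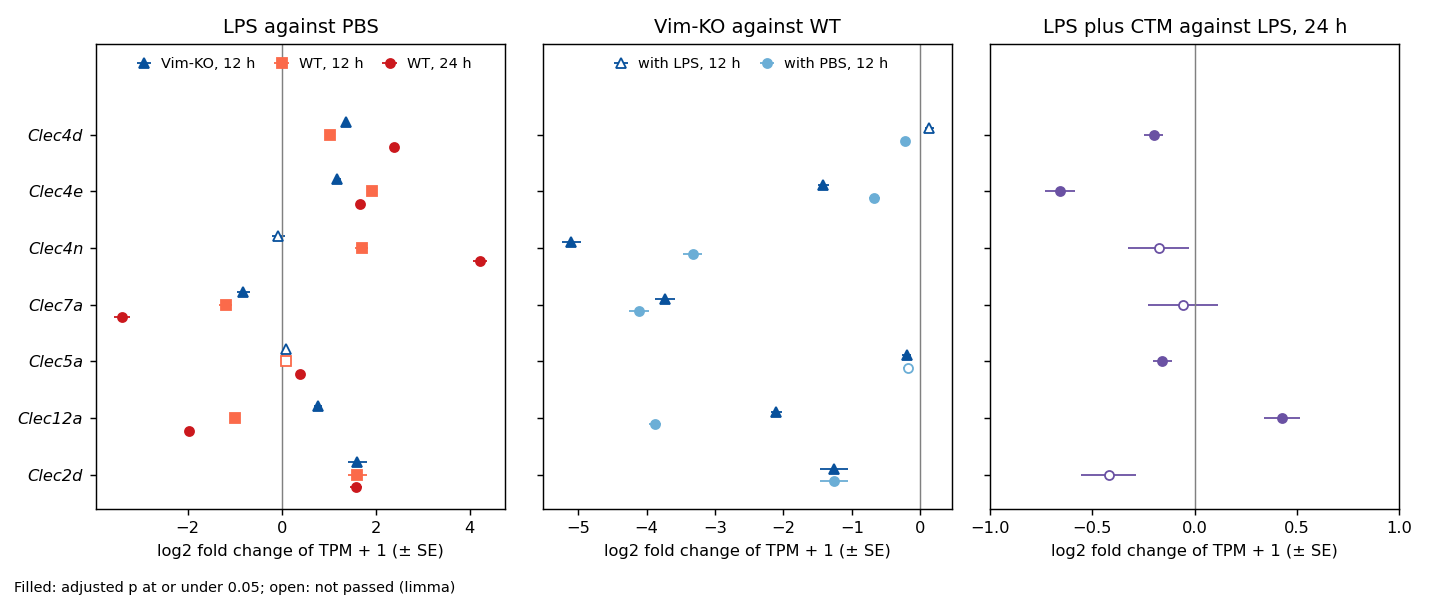
Log2 fold change of TPM + 1 with its SE for the 7 receptors tested, for LPS against PBS (left), Vim-KO against WT (middle) and LPS plus CTM against LPS (right, on a narrower axis); filled symbols passed an adjusted p of 0.05 and open symbols did not. Clec4n runs from 4.22 in WT cells at 24 h to -0.07 in Vim-KO cells at 12 h, and Clec12a is below 0 in WT cells and at 0.78 in Vim-KO cells.

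LPS plus CTM against LPS at 24 h moved the receptors little beside the LPS change itself, and Mincle moved most. Clec4e was 142 and 140.4 TPM in LPS plus CTM libraries, against 224 and 223 TPM in LPS libraries, so that the level with CTM was 63.3% of that without it (log2 fold change -0.66 ± 0.07; adjusted p = 0.00159). Its partner Clec4d was 645 and 628 TPM in LPS plus CTM libraries, against 718 and 746 TPM in LPS libraries (-0.20 ± 0.05; adjusted p = 0.0190). The inhibitory receptor rose, with Clec12a at 27.1 and 31.0 TPM in LPS plus CTM libraries, against 20.7 and 22.0 TPM in LPS libraries (0.43 ± 0.09; adjusted p = 0.0137). Clec5a was 257 and 250.3 TPM in LPS plus CTM libraries, against 287 and 279.6 TPM in LPS libraries (-0.16 ± 0.05; adjusted p = 0.0475).

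The other receptors did not pass. Clec4n and Clec2d did not overlap between the groups either, so that a gap between libraries did not set apart the genes that passed. Clec4n was 79.4 and 79.6 TPM in LPS plus CTM libraries, against 85.0 and 95.1 TPM in LPS libraries (-0.18 ± 0.15; adjusted p = 0.419). Clec2d was 7.29 and 6.72 TPM in LPS plus CTM libraries, against 9.49 and 9.93 TPM in LPS libraries (-0.42 ± 0.14; adjusted p = 0.0601), and it passed after scaling (-0.50). Clec7a was 2.26 and 1.84 TPM in LPS plus CTM libraries, against 2.23 and 2.11 TPM in LPS libraries (-0.06 ± 0.17; adjusted p = 0.836). With CTM, then, 1 receptor was higher and 3 were lower, where 16.1% of all genes tested were higher and 9.45% lower (63.1% of calls higher, against 45.3% after scaling). The Clec4e call held in each fit that left out 1 library, with adjusted p up to 0.0204 over the alternatives. The calls of Clec4d, Clec5a and Clec12a were lost in some, so that 2 receptors passed without LPS library 2, without LPS library 3 or without LPS plus CTM library 2, 3 without either PBS library, and 1 without LPS plus CTM library 3. Against PBS, 5 receptors were higher and 2 lower in LPS plus CTM cells, where 17.4% of all genes were higher and 35.5% lower (32.9% of calls higher, against 53.3% after scaling). These ran from Clec4n (log2 fold change 4.04 ± 0.15) to Clec7a (-3.44 ± 0.17), and share the PBS and LPS plus CTM libraries with the comparisons above.

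LPS against PBS in WT cells at 12 h raised Clec4d, Clec4e, Clec4n and Clec2d and lowered Clec7a and Clec12a. Clec4d was 705 and 648 TPM in LPS libraries, against 332 and 333 TPM in PBS libraries (log2 fold change 1.02 ± 0.07; adjusted p = 4.39e-06). Clec4e was 331 and 322 TPM in LPS libraries, against 82.4 and 87.1 TPM in PBS libraries (1.93 ± 0.08; adjusted p = 3.56e-07). Clec4n was 56.7 and 58.2 TPM in LPS libraries, against 17.5 and 16.3 TPM in PBS libraries (1.71 ± 0.14; adjusted p = 1.58e-05). All of these were without overlap, as was Clec2d at 7.95 and 7.70 TPM in LPS libraries, against 2.02 and 1.76 TPM in PBS libraries (1.61 ± 0.20; adjusted p = 1.83e-04). Clec7a fell to 14.3 and 12.8 TPM in LPS libraries, against 32.1 and 32.3 TPM in PBS libraries (-1.19 ± 0.14; adjusted p = 1.36e-04). Clec12a fell to 73.3 and 72.8 TPM in LPS libraries, against 150.2 and 143 TPM in PBS libraries (-0.99 ± 0.08; adjusted p = 1.67e-05). Clec5a was 388 and 390.0 TPM in LPS libraries, against 375 and 349.7 TPM in PBS libraries, and did not pass (0.10 ± 0.07; adjusted p = 0.204). Thus 4 receptors were higher and 2 lower, where 17.8% of all genes tested were higher and 53.1% lower (25.2% of calls higher, against 51.3% after scaling). Scaling moved the median of all genes by 0.37, and Clec5a then passed at 0.49 (adjusted p = 7.39e-04). The 12 h and 24 h experiments were separate, so their levels were not tested against each other; Clec7a with LPS was 13.5 ± 1.07 TPM at 12 h and 2.17 ± 0.0793 TPM at 24 h, beside PBS levels of 32.2 ± 0.161 and 32.4 ± 6.08 TPM.

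In Vim-KO cells LPS still raised Mincle and its partner at 12 h, but Dectin-2 stayed near 0. Clec4d was 707 and 774 TPM in Vim-KO LPS libraries, against 286 and 283 TPM in Vim-KO PBS libraries (log2 fold change 1.38 ± 0.07; adjusted p = 9.26e-07). Clec4e was 116 and 127 TPM in Vim-KO LPS libraries, against 49.9 and 55.7 TPM in Vim-KO PBS libraries (1.19 ± 0.08; adjusted p = 4.73e-06). Clec4n was 0.785 and 0.615 TPM in Vim-KO LPS libraries, against 0.581 and 1.02 TPM in Vim-KO PBS libraries, which overlap (-0.07 ± 0.14; adjusted p = 0.661). The inhibitory receptor Clec12a rose, with 15.1 and 17.4 TPM in Vim-KO LPS libraries, against 9.12 and 8.95 TPM in Vim-KO PBS libraries (0.78 ± 0.08; adjusted p = 7.26e-05). Clec2d was 2.07 and 3.44 TPM in Vim-KO LPS libraries, against 0.0843 and 0.338 TPM in Vim-KO PBS libraries (1.62 ± 0.20; adjusted p = 2.01e-04). Clec7a was 0.0817 and 0.103 TPM in Vim-KO LPS libraries, against 1.17 and 0.708 TPM in Vim-KO PBS libraries (-0.82 ± 0.14; adjusted p = 0.00126), with both groups below 1 TPM on average. For such low genes the added 1 TPM understates the change: with a pseudocount of 0.1 TPM the log2 fold change was -2.40 for Clec7a and 3.29 for Clec2d. Clec5a was 332 and 344 TPM in Vim-KO LPS libraries, against 303 and 335 TPM in Vim-KO PBS libraries, and did not pass (0.08 ± 0.07; adjusted p = 0.30), although it did after scaling (0.35). In all, 4 receptors were higher and 1 lower, where 20.5% of all genes tested were higher and 45.8% lower (31.0% of calls higher, against 50.4% after scaling, which moved the median by 0.25).

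Most of the receptors were lower in Vim-KO than in WT cells with either treatment, and loss of vimentin and differences between the cell lines or clones cannot be told apart here. Clec7a averaged 0.937 ± 0.324 TPM in Vim-KO PBS cells and 32.2 ± 0.161 TPM in WT PBS cells (2.91%; log2 fold change -4.11 ± 0.14; adjusted p = 8.09e-07). With LPS it averaged 0.0923 ± 0.0149 TPM in Vim-KO cells and 13.5 ± 1.07 TPM in WT cells (0.682%; -3.73 ± 0.14; adjusted p = 1.12e-06). Dectin-1 was thus at or below 1.17 TPM in each of the 4 Vim-KO libraries. Clec4n, for Dectin-2, averaged 0.80 ± 0.31 TPM in Vim-KO PBS cells and 16.9 ± 0.854 TPM in WT PBS cells (-3.33 ± 0.14; adjusted p = 1.87e-06). With LPS it averaged 0.70 ± 0.12 TPM in Vim-KO cells and 57.4 ± 1.06 TPM in WT cells, 1.22% of the WT level (-5.10 ± 0.14; adjusted p = 2.78e-07). Clec12a averaged 9.03 ± 0.123 TPM in Vim-KO PBS cells and 146.6 ± 5.20 TPM in WT PBS cells (-3.88 ± 0.08; adjusted p = 1.31e-07), and with LPS 16.2 ± 1.62 TPM in Vim-KO cells and 73.0 ± 0.327 TPM in WT cells (-2.11 ± 0.08; adjusted p = 1.23e-06). For these receptors the genotypes did not overlap with either treatment.

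The neighbours Clec4d and Clec4e were affected less. Clec4e averaged 52.8 ± 4.05 TPM in Vim-KO PBS cells and 84.7 ± 3.31 TPM in WT PBS cells (log2 fold change -0.67 ± 0.08; adjusted p = 3.06e-04), and with LPS 121.5 ± 8.36 TPM in Vim-KO cells and 326 ± 5.99 TPM in WT cells (-1.42 ± 0.08; adjusted p = 6.74e-06). Clec4d averaged 284 ± 2.61 TPM in Vim-KO PBS cells and 332 ± 0.967 TPM in WT PBS cells (-0.22 ± 0.07; adjusted p = 0.0276), a call that was lost after scaling (-0.17) and without any 1 of these 4 libraries (adjusted p up to 0.123 over all alternatives). With LPS Clec4d averaged 740.5 ± 47.0 TPM in Vim-KO cells and 676 ± 40.0 TPM in WT cells and did not pass (0.13 ± 0.07; adjusted p = 0.148). Clec2d averaged 0.211 ± 0.179 TPM in Vim-KO PBS cells and 1.89 ± 0.187 TPM in WT PBS cells (11.2%; -1.26 ± 0.20; adjusted p = 0.00176). With LPS Clec2d averaged 2.75 ± 0.966 TPM in Vim-KO cells and 7.83 ± 0.182 TPM in WT cells (35.2%; -1.26 ± 0.20; adjusted p = 0.00174). The equal log2 values for Clec2d depended on the added 1 TPM. At a pseudocount of 0.1 TPM they were -2.80 with PBS and -1.52 with LPS. Clec5a differed least with PBS, at 319 ± 22.8 TPM in Vim-KO PBS cells and 362 ± 18.0 TPM in WT PBS cells (-0.18 ± 0.07; adjusted p = 0.0604). With LPS it was 338 ± 8.57 TPM in Vim-KO cells and 389 ± 1.22 TPM in WT cells (-0.20 ± 0.07; adjusted p = 0.0421), a call that was lost without any 1 of these 4 libraries and without either WT PBS library (adjusted p up to 0.131). Mrc1 was listed at 0 and 0.0168 TPM in Vim-KO PBS cells against 0.276 and 0.304 TPM in WT PBS cells, and at 0.0452 and 0.0414 TPM in Vim-KO LPS cells against 0.359 and 0.324 TPM in WT LPS cells, levels too low for a test.

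Of the 7 receptors tested, 0 were higher and 6 lower in Vim-KO PBS cells, where 17.7% of all genes were higher and 25.4% lower. With LPS 0 were higher and 6 lower, where 24.1% of all genes were higher and 20.6% lower. Scaling left 0 higher and 5 lower with PBS and 0 higher and 6 lower with LPS, while the share of all calls that were higher went to 48.0% with PBS (41.0% unscaled) and to 44.4% with LPS (54.0% unscaled). Their median log2 fold change was -1.26 with PBS and -1.42 with LPS, against -0.05 and 0.04 over all genes. The summed macrophage markers were lower in Vim-KO cells as well, as given above, and their part in these differences was not tested.

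The LPS change in Vim-KO cells minus that in WT cells (the interaction) tests whether the response itself differed. It passed for 4 receptors. For the inhibitory receptor Clec12a it was 1.77 ± 0.12 (adjusted p = 6.86e-05), since LPS gave a log2 fold change of 0.78 in Vim-KO cells and -0.99 in WT cells. For Clec4n it was -1.78 ± 0.20 (adjusted p = 7.24e-04), from -0.07 in Vim-KO cells and 1.71 in WT cells. For Clec4e it was -0.75 ± 0.11 (adjusted p = 0.00300), from 1.19 in Vim-KO cells and 1.93 in WT cells. For Clec4d it was 0.35 ± 0.09 (adjusted p = 0.0338), from 1.38 in Vim-KO cells and 1.02 in WT cells, and this call was lost after scaling (0.23; adjusted p = 0.181) and without either WT PBS library, either Vim-KO PBS library, WT LPS library 2 or Vim-KO LPS library 2. It did not pass for Clec7a (0.38 ± 0.20; adjusted p = 0.229), Clec5a (-0.02 ± 0.10; adjusted p = 0.918) or Clec2d (0.0023 ± 0.29; adjusted p = 0.997). Clec7a and Clec2d depended on the scale. At a pseudocount of 0.1 TPM the interaction was -1.15 for Clec7a (adjusted p = 0.0522) and 1.29 for Clec2d (adjusted p = 0.18), so the value near 0 for Clec2d does not show equal responses. The interaction was positive for 2 receptors and negative for 2, where it was positive for 13.7% of all genes tested and negative for 6.96% (66.2% of calls positive, against 46.2% after scaling, which moved the median by 0.12). Tlr4, through which macrophages sense LPS, was lower in Vim-KO cells with PBS (log2 fold change -1.54 ± 0.11; adjusted p = 2.09e-05). With LPS it was lower as well (-1.41 ± 0.11; adjusted p = 3.69e-05). The part of Tlr4 in the interaction was not tested.

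Few genes beside the receptors were tested in the 2 gene groups on chromosome 6. Within 250 kb of Clec4n, Clec4d and Clec4e, 4 genes were tested, of which 4 were lower in Vim-KO cells with PBS and 3 with LPS, where 25.4% and 20.6% of all genes were lower. Of these, 3 are the receptors already counted. The other gene was Clec4a2, which encodes the inhibitory receptor DCIR, at 0.991 ± 0.399 TPM in Vim-KO PBS cells and 38.1 ± 2.77 TPM in WT PBS cells (log2 fold change -4.31 ± 0.17; adjusted p = 1.52e-06). Around Clec2d, Clec12a and Clec7a 5 genes were tested and 4 were lower with either treatment. Of the other genes there, Gabarapl1, an autophagy gene, was 38.2 ± 3.99 TPM in Vim-KO PBS cells and 50.9 ± 5.25 TPM in WT PBS cells (-0.40 ± 0.10; adjusted p = 0.0106). Cd69, an early activation antigen, did not pass, at 0.289 ± 0.164 TPM in Vim-KO PBS cells and 0.528 ± 0.0273 TPM in WT PBS cells, and at 15.2 ± 0.325 TPM in Vim-KO LPS cells and 13.5 ± 0.243 TPM in WT LPS cells (0.16 ± 0.13; adjusted p = 0.352). In these gene groups, then, Clec4n, Clec4a2, Clec7a and Clec2d averaged below 1 TPM in Vim-KO PBS cells and were called lower there. They lay near genes that differed less with PBS (Clec4d, Gabarapl1). Of the former, Clec2d was low in WT PBS cells too, at 1.89 TPM. Cd69 was low with PBS in both genotypes and did not pass (-0.25 ± 0.13; adjusted p = 0.165), a smaller difference than that of Gabarapl1. Clec12a kept 9.03 TPM in Vim-KO PBS cells, with a log2 fold change of -3.88. Clec4d lies 15.1 kb from Clec4n and 6.52 kb from Clec4e, and the part of the promoter matches in these differences was not tested.

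The signalling partners of the receptors changed unevenly in Vim-KO cells. Among 15 adaptors and proximal kinases 0 were higher and 10 lower in Vim-KO PBS cells (1 and 9 after scaling), and 2 were higher and 7 lower with LPS (1 and 8 after scaling). Of all genes tested 17.7% were higher and 25.4% lower with PBS, and 24.1% higher and 20.6% lower with LPS, which also applies to the lists that follow. The median log2 fold change of the adaptors and kinases was -0.29 with PBS and -0.21 with LPS, against -0.05 and 0.04 over all genes. Prkcd, the kinase that phosphorylates CARD9, averaged 74.1 ± 5.73 TPM in Vim-KO PBS cells and 313 ± 13.4 TPM in WT PBS cells (-2.07 ± 0.07; adjusted p = 6.39e-07). Src averaged 0.113 ± 0.0184 TPM in Vim-KO LPS cells and 13.5 ± 0.728 TPM in WT LPS cells (-3.70 ± 0.15; adjusted p = 1.72e-06). The direct partners Fcer1g, Tyrobp and Syk, named after their values were seen, differed less. Fcer1g was 670 to 711 TPM in Vim-KO PBS cells and 821 to 875 TPM in WT PBS cells (-0.30 ± 0.08; adjusted p = 0.0151). Tyrobp was 721 to 779 TPM in Vim-KO PBS cells and 854 to 906 TPM in WT PBS cells (-0.23 ± 0.06; adjusted p = 0.0170). Syk was 34.7 to 35.8 TPM in Vim-KO PBS cells and 43.3 to 44.4 TPM in WT PBS cells (-0.31 ± 0.08; adjusted p = 0.0197), and with LPS it did not pass (0.21 ± 0.08; adjusted p = 0.0735). Fcer1g (-0.43 ± 0.08; adjusted p = 0.00263) and Tyrobp (-0.36 ± 0.06; adjusted p = 0.00215) were lower in Vim-KO cells with LPS as well. In the CARD9 module, of 10 tested, 0 were higher and 4 lower with PBS (0 and 2 after scaling), and 1 was higher and 2 lower with LPS. Malt1, the paracaspase of the module, averaged 18.1 ± 2.43 TPM in Vim-KO LPS cells and 32.5 ± 1.41 TPM in WT LPS cells (-0.82 ± 0.11; adjusted p = 8.3e-04), and Card9 averaged 76.1 ± 7.62 TPM in Vim-KO LPS cells and 103 ± 11.7 TPM in WT LPS cells (-0.43 ± 0.11; adjusted p = 0.0152).

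**Figure D3:**
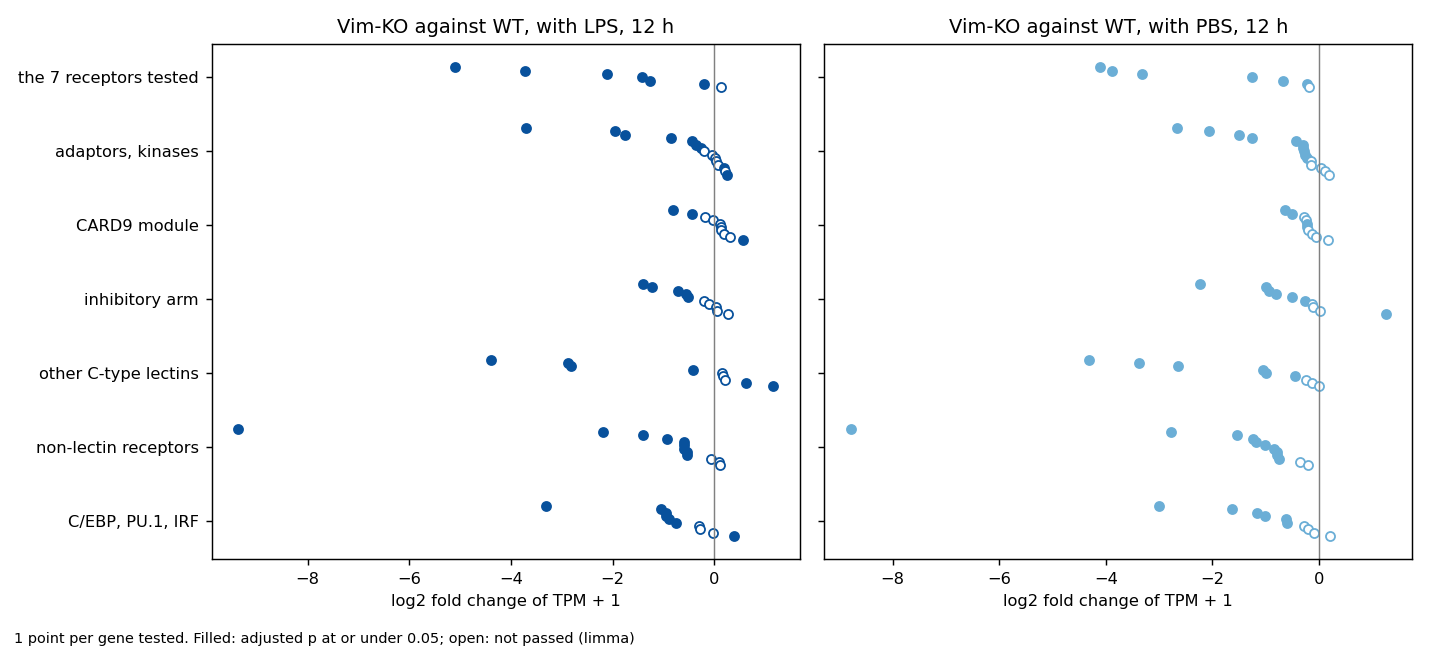
Log2 fold change of TPM + 1 in Vim-KO against WT cells at 12 h, with LPS (left) and with PBS (right), 1 point per gene tested in each list, filled where an adjusted p of 0.05 was passed. The receptors reach -5.10 and the adaptors and kinases -3.70 with LPS, Cd36 lies farthest left among the non-lectin receptors in both panels, and most genes of the CARD9 module lie within 1 of 0.

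Receptors outside the 8 changed with genotype too. Of 55 other C-type lectin receptors listed, 9 were tested at 12 h, of which 0 were higher and 6 lower in Vim-KO PBS cells, and 2 higher and 4 lower with LPS. Clec4a3, a relative of Clec4a2, averaged 0.754 ± 0.185 TPM in Vim-KO PBS cells and 17.2 ± 3.21 TPM in WT PBS cells (log2 fold change -3.37 ± 0.17; adjusted p = 4.16e-06), and reads shared by the close Clec4a genes may have been split between them. Cd302 averaged 3.08 ± 0.364 TPM in Vim-KO PBS cells and 24.6 ± 0.219 TPM in WT PBS cells (-2.65 ± 0.11; adjusted p = 1.91e-06). Cd72 was lower with PBS, at 456 ± 15.2 TPM in Vim-KO cells and 942 ± 40.5 TPM in WT cells (-1.05 ± 0.07), and higher with LPS, at 1172 ± 72.4 TPM in Vim-KO cells and 522 ± 10.1 TPM in WT cells (1.16 ± 0.07). Among 12 non-lectin receptors of fungi and mycobacteria 0 were higher and 10 lower with PBS, and 0 higher and 9 lower with LPS. The scavenger receptor Cd36 was listed at 0 in both Vim-KO PBS libraries and averaged 439 ± 1.47 TPM in WT PBS cells, and Tlr2, which recognises lipoproteins, averaged 69.2 ± 0.837 TPM in Vim-KO PBS cells and 164 ± 9.64 TPM in WT PBS cells (-1.23 ± 0.08; adjusted p = 1.82e-05). In the inhibitory arm, of 10 tested, 1 was higher and 6 lower with PBS, and 0 higher and 5 lower with LPS. Its exception Dok2, an adaptor that restrains kinase signalling, averaged 148 ± 8.06 TPM in Vim-KO PBS cells and 61.5 ± 0.412 TPM in WT PBS cells (1.25 ± 0.07; adjusted p = 7.34e-06). Of 10 myeloid C/EBP, PU.1 and IRF factors 0 were higher and 6 lower with PBS, and 1 higher and 6 lower with LPS. Cebpb averaged 167 ± 34.2 TPM in Vim-KO LPS cells and 343 ± 26.7 TPM in WT LPS cells (-1.05 ± 0.13; adjusted p = 3.69e-04). Of 7 alternative activation genes tested 0 were higher and 4 lower with PBS, and 0 higher and 6 lower with LPS, Il4ra among them at 12.4 ± 3.61 TPM in Vim-KO LPS cells and 45.6 ± 6.01 TPM in WT LPS cells (-1.82 ± 0.20; adjusted p = 2.61e-04). Of 14 cytokine and mediator genes of the pathway 3 were higher and 4 lower with PBS, and 3 higher and 8 lower with LPS, where Il10 was listed at 0 in both Vim-KO libraries and averaged 26.2 ± 1.92 TPM in WT cells.

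LPS itself raised Syk and 7 of the 10 tested genes of the CARD9 module at 24 h, where 20.9% of all genes were higher and 45.1% lower. Of the adaptors and proximal kinases 7 were higher and 4 lower with LPS (9 and 4 after scaling), and Syk averaged 152 ± 7.29 TPM with LPS and 46.6 ± 2.59 TPM with PBS (log2 fold change 1.69 ± 0.08; adjusted p = 3e-06). In the CARD9 module, of 10 tested, 7 were higher and 1 lower (7 and 0 after scaling), with Malt1 at 43.3 ± 2.33 TPM with LPS and 19.9 ± 0.981 TPM with PBS (1.08 ± 0.10; adjusted p = 6.57e-05) and Card9 at 162 ± 6.84 TPM with LPS and 95.7 ± 1.80 TPM with PBS (0.75 ± 0.07; adjusted p = 6.09e-05). In the inhibitory arm, of 9 tested, 1 was higher and 3 lower, among them the phosphatase gene Ptpn6 at 222 ± 13.2 TPM with LPS and 398 ± 13.3 TPM with PBS (-0.84 ± 0.06; adjusted p = 2.05e-05). Of 12 other C-type lectin receptors tested 4 were higher and 4 lower, of 11 non-lectin receptors 9 were higher and 0 lower, of 12 cytokine and mediator genes 9 were higher and 3 lower, of 8 alternative activation genes 5 were higher and 3 lower, and of 11 C/EBP, PU.1 and IRF factors 4 were higher and 6 lower (5 and 3 after scaling). At 12 h in WT cells the adaptors and kinases gave 7 higher and 6 lower (8 and 4 after scaling), where 17.8% of all genes were higher and 53.1% lower, and the CARD9 module 1 higher and 3 lower, which turned to 3 higher and 0 lower after scaling.

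CTM lowered several of these signalling genes in LPS-treated cells. Syk averaged 98.2 ± 6.58 TPM with LPS plus CTM and 152 ± 7.29 TPM with LPS (log2 fold change -0.63 ± 0.08; adjusted p = 0.00213), and Malt1 18.7 ± 1.43 TPM with LPS plus CTM and 43.3 ± 2.33 TPM with LPS (-1.17 ± 0.10; adjusted p = 5.53e-04). Of the adaptors and kinases 1 was higher and 4 lower (1 and 8 after scaling), and of the CARD9 module 0 were higher and 3 lower (0 and 4 after scaling), where 16.1% of all genes were higher and 9.45% lower. Of the cytokine and mediator genes 1 was higher and 9 lower, led by Il6 at 2.70 ± 1.09 TPM with LPS plus CTM and 22.8 ± 1.37 TPM with LPS (-2.72 ± 0.22; adjusted p = 5.53e-04). Cebpb averaged 340.3 ± 7.45 TPM with LPS plus CTM and 577 ± 39.3 TPM with LPS (-0.76 ± 0.06; adjusted p = 4.87e-04). Of the 11 C/EBP, PU.1 and IRF factors tested, 2 were higher and 4 lower (2 and 6 after scaling). In the inhibitory arm, of 9 tested, 1 was higher and 1 lower (1 and 2 after scaling). The higher one was Ptpn6, at 290 ± 7.21 TPM with LPS plus CTM and 222 ± 13.2 TPM with LPS (0.38 ± 0.06; adjusted p = 0.00452).

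The genes most like each receptor over the 7 cell line groups were found by the root mean square difference of their log2(TPM + 1) group means, centred within each experiment, among 10149 genes tested in both. The gene most like Clec7a was Clec12a (0.77 on the log2 scale, where the profile of Clec7a itself spread by 1.86), followed by B4galt6 (0.79). For Clec12a they were B4galt6 (0.35) and B3galnt1 (0.45), with Clec7a at rank 63. For Clec4e they were Mindy1 (0.17) and Znrf1 (0.18), with Clec2d at rank 3, and for Clec2d they were Stx11 (0.15) and Mindy1 (0.16), with Clec4e at rank 5. Clec4d was most like Slc39a4 (0.12) and Spp1 (0.15), with its partner Clec4e at rank 388. Clec4n had no close match, with Siglec1 at 0.66 and Mcemp1 at 0.72, and the nearly flat Clec5a was most like Ncstn (0.03) and Atp6v1g1 (0.05). These are descriptions over 7 group means that share libraries.

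In liver each of the 5298 genes given deposited values (5298 of 5298, 100%) differed by 2-fold or more when the WT LPS library was set against the WT PBS library, so the listing itself selects for that contrast. Clec4d, Clec4e, Clec5a, Clec2d and Mrc1 were listed. The RNA was extracted on 3 dates, with the TG2-KO pair and the depletion pair each on a date of its own, and there are no replicates and no tests. Tgm2 was 15.5 TPM in the TG2-KO LPS liver against 424.8 TPM in the WT LPS liver, and 0.74 TPM in the TG2-KO PBS liver against 35.7 TPM in the WT PBS liver. Liver levels of the activating receptors were low. Clec4d was 2.03 TPM in the WT LPS liver and listed at 0 in the WT PBS liver, and Clec4e was 1.73 TPM in the WT LPS liver and listed at 0 in the WT PBS liver. Clec5a was 0.31 TPM in the WT LPS liver and listed at 0 in the WT PBS liver. Clec2d was the highest, at 16.4 TPM in the WT LPS liver against 41.2 TPM in the WT PBS liver. Mrc1, near 0 in RAW264.7 cells, was 1.08 TPM in the WT LPS liver against 5.34 TPM in the WT PBS liver. A difference of at least 1 on the log2(TPM + 1) scale was reached by 4 of the 5, as by 66.9% of all genes listed.

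The TG2-KO livers gave values on the same side. Mrc1 was 0.97 TPM in the TG2-KO LPS liver against 4.74 TPM in the TG2-KO PBS liver (difference of log2(TPM + 1) -1.54), and Clec2d was 29.1 TPM in the TG2-KO LPS liver against 48.1 TPM in the TG2-KO PBS liver (-0.70). Clec4d was 1.88 TPM in the TG2-KO LPS liver against 0.58 TPM in the TG2-KO PBS liver (0.87), Clec4e was 0.79 TPM in the TG2-KO LPS liver against 0.20 TPM in the TG2-KO PBS liver (0.58), and Clec5a was 0.10 TPM in the TG2-KO LPS liver against 0.06 TPM in the TG2-KO PBS liver (0.05). Mrc1 alone differed by at least 1, where 31.9% of all listed genes did. Of 10 markers of sinusoidal endothelium, cells that also carry Mrc1, 9 were lower with LPS in each genotype and 1, Lyve1, was higher (16.1 TPM in the TG2-KO LPS liver against 3.06 TPM in the TG2-KO PBS liver, and 19.1 TPM in the WT LPS liver against 5.58 TPM in the WT PBS liver), their sum being 47.8 TPM in the TG2-KO LPS liver against 143 TPM in the TG2-KO PBS liver, and 46.0 TPM in the WT LPS liver against 169 TPM in the WT PBS liver. Of 8 listed Kupffer cell markers 7 were lower and 1, Marco, was higher with LPS in each genotype (11.3 TPM in the TG2-KO LPS liver against 4.04 TPM in the TG2-KO PBS liver, and 13.6 TPM in the WT LPS liver against 2.5 TPM in the WT PBS liver). They summed to 69.0 TPM in the TG2-KO LPS liver against 101 TPM in the TG2-KO PBS liver, and to 57.2 TPM in the WT LPS liver against 142 TPM in the WT PBS liver, and the part of both lists in the Mrc1 values was not tested. All 8 listed neutrophil markers were higher with LPS in each genotype. Their sum was 160 TPM with LPS against 30.4 TPM with PBS in TG2-KO livers, and 88.3 against 1.76 TPM in WT livers. All 6 listed monocyte markers were higher too, summing to 41.3 against 11.4 TPM in TG2-KO and 51.6 against 6.44 TPM in WT livers. The part of these 2 lists in the Clec4d and Clec4e values was not tested. In whole liver, a change in the cells of a type and a change in RNA per cell cannot be told apart.

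Between the TG2-KO LPS and WT LPS livers 0 of the 5 receptors differed by at least 1, where 6.3% of all listed genes did, and genotype and extraction date cannot be told apart. Clec4e was 0.79 TPM in the TG2-KO LPS liver against 1.73 TPM in the WT LPS liver (-0.61), and Clec2d was 29.1 TPM in the TG2-KO LPS liver against 16.4 TPM in the WT LPS liver (0.79). With CTM 0 of the 5 differed by at least 1, where 1.59% of all listed genes did. Clec4e was 3.29 TPM in the WT LPS plus CTM liver against 1.73 TPM in the WT LPS liver (0.65), the opposite side from RAW264.7 cells, a contrast that was not tested. The non-depleted LPS liver, of another extraction date and without CTM, held Clec4e at 4.80 TPM. Clec4d was 2.20 TPM in the WT LPS plus CTM liver against 2.03 TPM in the WT LPS liver (0.08).

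Between the depleted and non-depleted livers, Clec4e differed most among the 5 listed receptors. Clec4e was 0.85 TPM in the depleted LPS liver against 4.80 TPM in the non-depleted LPS liver (difference of log2(TPM + 1) -1.65), the 1 receptor of 5 that differed by at least 1, where 8.83% of all listed genes did. The WT LPS liver, of another extraction date and with no depletion named, held Clec4e at 1.73 TPM. Clec4e thus also differed between WT livers given LPS without depletion, and the spread within a group is unknown. Clec4d was 1.52 TPM in the depleted LPS liver against 2.36 TPM in the non-depleted LPS liver (-0.42). Clec5a was 0.19 TPM in the depleted LPS liver against 0.11 TPM in the non-depleted LPS liver. Mrc1 was 1.28 TPM in the depleted LPS liver against 1.29 TPM in the non-depleted LPS liver (-0.01), and Clec2d 17.7 TPM in the depleted LPS liver against 18.1 TPM in the non-depleted LPS liver (-0.03). All 8 listed Kupffer cell markers were lower, summing to 18.4 TPM in the depleted LPS liver against 128 TPM in the non-depleted LPS liver, with the Kupffer cell lectin Clec4f at 0.21 TPM in the depleted LPS liver against 12.3 TPM in the non-depleted LPS liver. Of 8 listed neutrophil markers 6 were higher and 2 lower, summing to 243 TPM in the depleted LPS liver against 126 TPM in the non-depleted LPS liver. The lower ones were Csf3r, at 2.87 TPM in the depleted LPS liver against 9.21 TPM in the non-depleted LPS liver, and Cxcr2, at 0.37 TPM in the depleted LPS liver against 1.34 TPM in the non-depleted LPS liver. Of 10 sinusoidal endothelial markers 8 were higher and 2 lower, and they summed to 102 TPM in the depleted LPS liver against 72.3 TPM in the non-depleted LPS liver. Of 6 listed macrophage markers 5 were lower and 1, Cd14, was higher. Without Cd14 they summed to 19.0 TPM in the depleted LPS liver against 54.1 TPM in the non-depleted LPS liver. Of 6 listed monocyte markers 5 were lower and 1, Chil3, was higher. These summed to 58.4 TPM in the depleted LPS liver against 82.0 TPM in the non-depleted LPS liver. All 3 listed dendritic cell markers were lower. The part of these marker differences in the Clec4e value was not tested. The adaptor Fcer1g was 38.2 TPM in the depleted LPS liver against 152 TPM in the non-depleted LPS liver, and Syk was 1.48 TPM in the depleted LPS liver against 4.90 TPM in the non-depleted LPS liver.

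**Figure D4:**
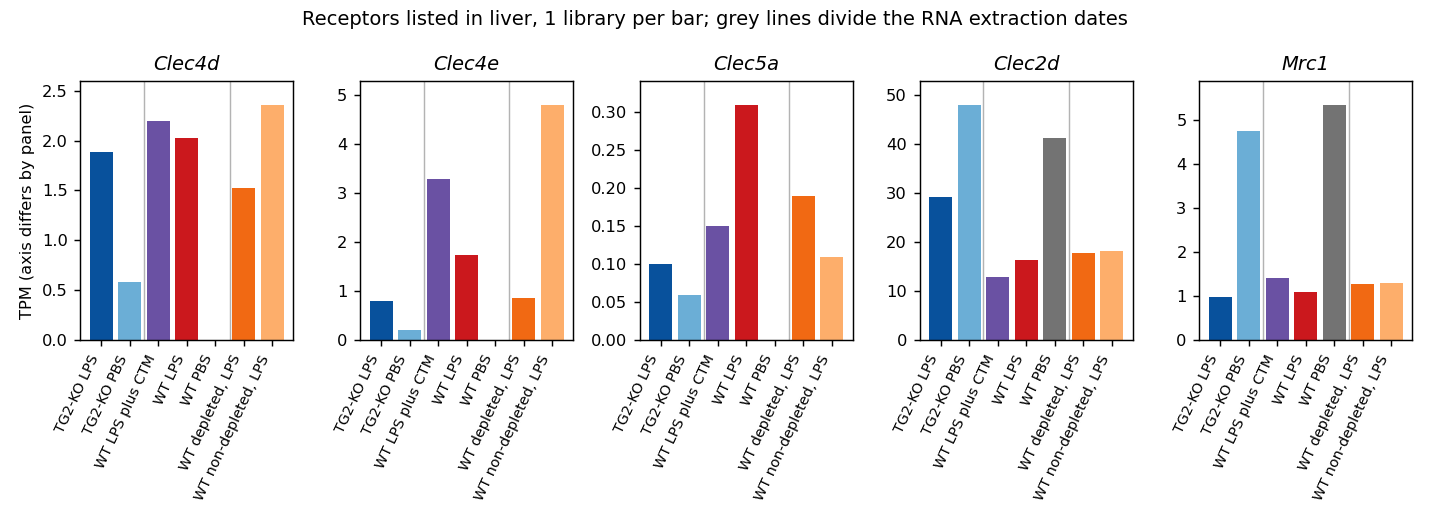
TPM of the 5 listed receptors in each liver library, 1 bar per library with axes that differ between panels, and grey lines between the 3 RNA extraction dates. Clec4e is 0.85 TPM in the depleted LPS liver, 4.80 TPM in the non-depleted LPS liver and 1.73 TPM in the WT LPS liver. Mrc1 is 1.28 TPM in the depleted LPS liver and 1.29 TPM in the non-depleted LPS liver, and there are no replicates.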

How the data were processed

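RNA of 14 RAW264.7 libraries and 7 liver libraries was sequenced with a stranded mRNA kit, per the labels' protocols, and the deposited TPM values are the authors' own, made with Salmon on mm10 (GRCm38), per the submitters' processing notes. Versions, the annotation and how reads shared by related genes were divided are not given in the sources used here. TPM summed to 993386 to 999191 in cell line libraries and to 153180 to 336332 in liver libraries, and no column was without a sample (0).

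From these values log2(TPM + 1) was computed. Genes averaging 1 TPM or more over an experiment were tested with limma 3.58.1 (R 4.3.3) with a mean-variance trend, all groups of an experiment in 1 fit, and adjusted by Benjamini-Hochberg over the whole table (threshold 0.05). Replicate libraries correlated at r = 0.986 to 0.990 across genes. On simulated data the 12 h fit called 88% of genes changed by a log2 fold change of 1 and the 24 h fit 78%. Liver groups have 1 library each, so a difference of at least 1 in log2(TPM + 1) was counted with no test. The alternatives were a pseudocount of 0.1 TPM, no filter or one at 5 TPM, median-of-ratios scaling, no trend, the groups of a contrast alone, a replicate block and leaving out each library. The 8 receptors, the 8 gene lists and the 8 marker lists were chosen with earlier results of these data known. From each list up to 4 genes past the threshold with the largest change and at least 5 TPM in a group were named per comparison, and a gene named outside that rule is said to be. Some genes that the rule would name are not reported here. At 24 h the LPS and LPS plus CTM columns are numbered otherwise than the labels and were matched to their group only.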

Additional observations from a re-analysis of the deposited data

Results flagged for a closer look

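The LPS change at 12 h differed between Vim-KO and WT cells, by the interaction term in limma, for 4 of the 7 receptors tested, where it was positive for 13.7% of all genes and negative for 6.96%. For Clec12a, the inhibitory receptor, the change in Vim-KO cells minus that in WT cells was 1.77 ± 0.12 on the log2 scale (SE; adjusted p = 6.86e-05), with both Vim-KO LPS libraries above both Vim-KO PBS libraries and both WT LPS libraries below both WT PBS libraries. For Clec4n, Dectin-2, it was -1.78 ± 0.20 (adjusted p = 7.24e-04), where the Vim-KO groups overlapped and the WT groups did not. For Clec4e, Mincle, it was -0.75 ± 0.11 (adjusted p = 0.00300), with higher LPS libraries in both genotypes. For Clec4d, its partner, it was 0.35 ± 0.09 (adjusted p = 0.0338), also with higher LPS libraries in both genotypes, and it was lost under 10 alternatives, among them scaling (0.23; adjusted p = 0.181) and the replicate block (adjusted p = 0.0647). Vim-KO levels of Clec4n stayed at or below 1.02 TPM. The summed macrophage markers also differed between genotypes, and Tlr4 was lower in Vim-KO cells with either treatment. The part of these markers and of Tlr4 in the differences was not tested.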

How the results depend on the processing

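No receptor that passed changed direction under an alternative, while called genes of the CARD9 module in WT cells at 12 h did after scaling, as given above. Of 237 recomputed counts 216 stayed within 1.5 times the reported one, and of 797 recomputed receptor values 724 kept their side of the threshold (12 of these, none called, turned in sign, among them Clec7a in the interaction with -1.15 at a pseudocount of 0.1 TPM), 43 lost it, 5 gained it and 25, all in liver, moved. Leaving out 1 library at a time gave 1 to 3 receptors and 1094 to 2330 genes for LPS plus CTM against LPS (4 and 2823 with all libraries), and 3 to 4 receptors and 1219 to 2649 genes for the interaction (4 and 2292). The lowest were without LPS plus CTM library 3 and without WT PBS library 1. In the other cell line comparisons, 5 to 7 receptors passed. For the 5 liver receptors, asking for a difference of at least 2 left 0 for LPS against PBS in WT, 0 for depletion and 0 for LPS against PBS in TG2-KO. Asking for at least 5 TPM in the higher library left 2, 0 and 0 in these comparisons. A pseudocount of 0.1 TPM gave 3 for LPS against PBS in TG2-KO and 2 for TG2-KO against WT with LPS. The cause was not tested.

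At 12 h deviations of libraries with the same number correlated at -0.22 to 0.098, and at 24 h those of LPS plus CTM and LPS at -0.031. No strong effect shared by number was thus seen. These values cannot show whether such libraries shared a culture or day, which the labels do not say. With a replicate block 2 receptors passed for LPS plus CTM against LPS, 6 for LPS against PBS in WT cells, 5 in Vim-KO cells, 5 for Vim-KO against WT with either treatment and 3 for the interaction, with 2182, 7677, 7169, 4393 (with PBS), 4603 (with LPS) and 1835 genes in that order. For the 24 h comparisons with PBS and for liver, no paired analysis was possible because the 24 h PBS columns share only 1 number with the other groups and liver groups have 1 library each. Read depth is unknown, so levels below about 1 TPM (Mrc1 in cells, Clec7a, Clec4n and Clec2d in Vim-KO cells, and Clec5a, Clec4e and some Clec4d and Mrc1 values in liver) carry an unknown counting error.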
